A study of Mus musculus with 4 samples.

Results

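Cycling immune cells were the barcodes of the inflamed mouse spinal cord (SC) that held immune transcripts together with transcripts of cell division. They were selected on the deposited counts themselves, by a rule applied to each barcode. A barcode needed at least 2000 unique molecular identifiers (UMIs, one for each captured transcript) with under 10% of them from mitochondrial genes. It needed a UMI for at least 3 of 12 cell division genes (Mki67, Top2a, Birc5, Cdk1, Ccna2, Ccnb1, Cenpf, Nusap1, Tpx2, Prc1, Ube2c and Hmmr). It needed at least 3 UMIs of Ptprc, Laptm5 and Coro1a together, which mark leukocytes. It could hold at most 2 UMIs of Cldn5, Cdh5, Egfl7 and Esam together, which mark endothelial cells (ECs). The rule found 599 barcodes among 10302 immune barcodes and 26525 barcodes in all that passed the depth and mitochondrial limits.

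The data were droplet single-cell RNA-seq of 4 libraries from mice with experimental autoimmune encephalomyelitis (EAE), a model of CNS autoimmunity induced here with a myelin oligodendrocyte glycoprotein peptide in complete Freund's adjuvant plus pertussis toxin. CD45+ leukocytes and CD31+ ECs were sorted from the SC and loaded in equal numbers, so that a share of immune barcodes is a share within the leukocyte sort. The study removed cells in cell cycle before its own analysis, and those cells are described here. The first pair of libraries came from wild-type C57Bl/6JOlaHsd mice of 15 weeks, taken 14 days post immunization (dpi). They received either mIgG1, an isotype control Ab, or Ang2 Ab, an Ab that blocks angiopoietin-2, a vascular ligand of the Tie2 receptor. The other pair came from C57Bl/6JCrl mice of 12 to 14 weeks at 12 dpi. The paper's methods give a different substrain code for the C57BL/6J background of both transgenic lines. EC-Ang2 mice carried both VE-cadherin-tTA and Tet-OS-Ang2, which together express Ang2 in ECs, with the transgene held off by doxycycline until birth, and Ctrl were single-transgenic littermates. Pertussis toxin was given at a lower dose in the transgenic pair, and the pairs also differ in substrain and day, so they are not set against each other as treatments. Each condition was 1 library and the number of mice behind it was not given, so a difference between conditions has no replicate check. Intervals below are exact 95% intervals that cover counting error only.

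The 4 libraries held 66631583 (mIgG1), 57954609 (Ang2 Ab), 52084739 (Ctrl) and 52796061 (EC-Ang2) UMIs. Of the barcodes with at least 2000 UMIs, there were 7012, 7498, 6643 and 5427 in the same order. Among cycling barcodes, 1 barcode sequence was present in both mIgG1 and Ang2 Ab, and no other pair of libraries shared any. Barcodes scored as doublets by Scrublet, at the top of each library's score at a rate of 0.8% for every 1000 barcodes, were 8.82%, 5.77%, 7.28% and 4.11% of the cycling barcodes. The same shares among immune barcodes outside the cycle were 2.30%, 2.02%, 3.08% and 2.80%. Cycling barcodes were thus scored as doublets more often in every library, and they were kept, with the values without them given among the alternatives.

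A dividing cell copies its DNA in S phase, prepares for division in G2 and separates its chromosomes in mitosis (M). Genes of DNA replication are transcribed at the start of S phase, mainly through E2F factors, and genes of G2 and mitosis follow, many of them through CCAAT boxes and the cell cycle genes homology region (CHR). Resident microglia divide locally in the inflamed CNS, activated T cells divide after meeting antigen, and infiltrating monocytes mostly arrive after division in the bone marrow. The 12 genes of the rule act mainly in G2 and mitosis, so a cell early in S phase can be missed by it.

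The promoters of 4 genes of the rule and of 1 replication gene are shown because the members were chosen on the former and the balance of S phase and G2M genes is described further on. Each is the 150 bases before the RefSeq start of the gene on its own strand, in the mouse build GRCm38.p6, with capitals marking the searched words. The CHR was searched as TTTGAA, the CCAAT box as CCAAT and the E2F site as TTTCCCGC, TTTCGCGC, TTTGCCGC or TTTGGCGC, all on both strands. Mki67 lies at chr7:135716380-135716529 (minus strand), Top2a at chr11:99024190-99024339 (minus), Cdk1 at chr10:69352913-69353062 (minus), Ube2c at chr2:164769779-164769928 (plus) and Mcm6 at chr1:128359706-128359855 (minus).
Mki67: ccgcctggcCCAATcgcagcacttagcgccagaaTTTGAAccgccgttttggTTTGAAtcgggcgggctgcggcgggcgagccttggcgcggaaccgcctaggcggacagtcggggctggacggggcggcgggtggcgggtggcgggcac
Top2a: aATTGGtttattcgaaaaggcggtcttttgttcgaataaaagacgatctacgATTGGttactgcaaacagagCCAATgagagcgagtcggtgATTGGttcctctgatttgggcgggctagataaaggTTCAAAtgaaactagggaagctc
Cdk1: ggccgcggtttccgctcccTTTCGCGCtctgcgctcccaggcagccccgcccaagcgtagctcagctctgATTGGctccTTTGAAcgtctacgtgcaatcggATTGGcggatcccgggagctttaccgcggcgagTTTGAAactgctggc
Ube2c: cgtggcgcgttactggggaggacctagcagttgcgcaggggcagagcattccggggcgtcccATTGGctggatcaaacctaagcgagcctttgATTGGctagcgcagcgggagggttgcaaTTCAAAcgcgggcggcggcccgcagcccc
Mcm6: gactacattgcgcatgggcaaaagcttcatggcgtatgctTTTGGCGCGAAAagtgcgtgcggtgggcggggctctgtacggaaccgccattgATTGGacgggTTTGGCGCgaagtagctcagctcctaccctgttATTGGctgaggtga
Words of different motifs did not overlap in these windows, and 2 E2F words of Mcm6 overlapped each other. Other promoters differed from those shown. Among other genes of the rule, the same 150 bases of Ccnb1 held CCAAT but no TTTGAA, and those of Birc5 and Nusap1 held none of the words. Among other S phase genes, Mcm5 held an E2F word, while Mcm3, Pcna and Rrm2 held CCAAT only. Over a window from 250 bases before to 50 after the start, 10 of the 12 genes of the rule had a RefSeq sequence, and 70.0% of them held TTTGAA against 18.1% of 27025 genes. Of the 32 genes of a G2 and mitosis list (G2M) with a window, 71.9% held it, against 15.4% of 26 genes of an S phase list. The E2F words showed the other order, with 38.5% of the S phase list, none of the G2M list, 1 of the 10 genes of the rule and 2.32% of all genes. CCAAT was present in 80.0% of the genes of the rule, 81.2% of the G2M list, 61.5% of the S phase list and 37.9% of all genes. These matches describe the letters of the windows, and binding was not measured.

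All 12 genes of the rule were present in the cycling cells of all 4 libraries, at levels that differed between libraries by more for some genes than for others. Levels below are counts per 1000000 UMIs (CPM) in the summed cells of a library. As the 3' protocol counts transcript ends, CPM values of different genes are not corrected for length and are compared only between cells. Birc5 (survivin, of the chromosomal passenger complex) stood at 246, 219, 260 and 306 CPM in mIgG1, Ang2 Ab, Ctrl and EC-Ang2, and Top2a (topoisomerase II alpha, which untangles DNA) at 269, 252, 294 and 284 CPM. Ube2c, which feeds the ubiquitin ligase that ends mitosis, ranged from 185 CPM in Ang2 Ab to 338 CPM in EC-Ang2. Cdk1, the kinase that starts mitosis, ranged from 127 CPM in Ang2 Ab to 190 CPM in Ctrl. Mki67, which encodes the proliferation antigen Ki-67, was at 141, 108, 114 and 119 CPM, and it was detected in 80.9%, 56.4%, 43.4% and 45.2% of the cycling cells. The other 7 genes ranged from 34.8 CPM (Hmmr, a spindle protein, in EC-Ang2) to 135 CPM (Nusap1, another spindle protein, in mIgG1). Immune cells outside the cycle held at most 7.03 CPM of any of the 12, which the rule itself ensures. By lineage, Mki67 was at 104.5, 156, 137 and 102 CPM in the microglial cells and at 369, 88.1, 48.5 and 126 CPM in the T cells defined below, so the T cells of mIgG1 were the highest.

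The threshold of the rule fell on a gradient. Over the 4 libraries, 8028 immune barcodes held none of the 12 genes, 1429 held 1, 246 held 2 and 138 held 3, and 40 held all 12. Each barcode was thinned to 2000 UMIs to read genes that the rule did not use at equal depth. The 39 genes of the G2M list gave a mean of 1.09 UMIs per 2000 in the barcodes just outside (2 genes of the rule), 2.52 just inside (3 genes) and 9.63 in those with all 12. Barcodes with none gave 0.378. The 34 genes of the S phase list gave 2.42 just outside, 3.57 just inside and 4.80 at 12 genes. Depth did not follow the number of genes detected step by step. The median was 6446.5 UMIs with none, 8683 at 2 genes, 7636 at 3, 6228 at 5 and 16938.5 at 12.

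**Figure D1:**
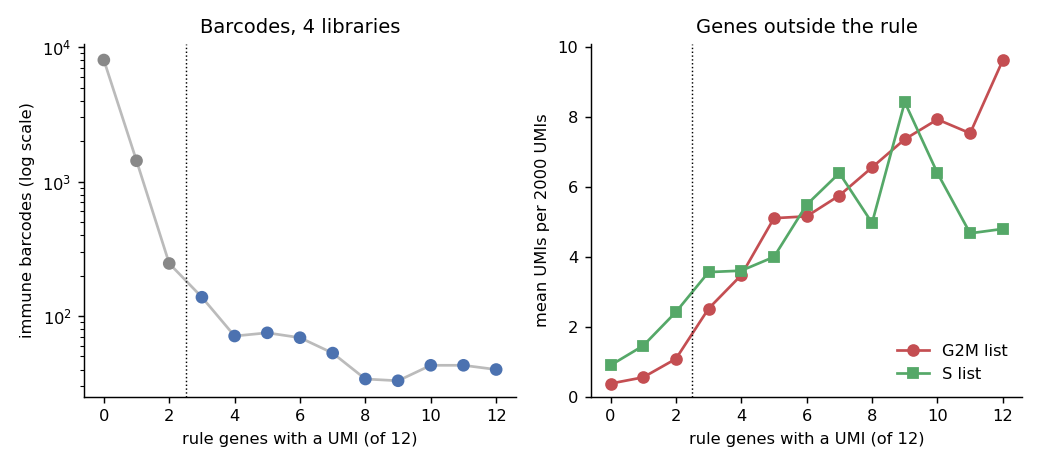
Left, number of immune barcodes of the 4 libraries (log axis) by how many of the 12 genes of the rule had a UMI, and right, mean UMIs of the S phase and G2M lists per 2000 UMIs, with the dotted line at the threshold of 3 genes. Across the threshold the means go from 1.09 to 2.52 UMIs for G2M and from 2.42 to 3.57 UMIs for S phase, and the G2M mean reaches 9.63 at 12 genes.

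The share of immune barcodes that cycled was highest in Ctrl and differed within both pairs. It was 68 of 2847 in mIgG1 (2.39%, interval 1.86 to 3.02) and 156 of 2781 in Ang2 Ab (5.61%, 4.78 to 6.53). The highest share was that of Ctrl with 302 of 2314 (13.1%, 11.7 to 14.5), while EC-Ang2 had 73 of 2360 (3.09%, 2.43 to 3.87). The share was therefore 2.35-fold higher in Ang2 Ab than in mIgG1 (log2 ratio 1.23, interval 0.81 to 1.66) and 0.237-fold in EC-Ang2 relative to Ctrl (log2 ratio −2.08, −2.47 to −1.70). No test between conditions can be made with 1 library each. Barcodes left out for holding over 2 endothelial UMIs beside at least 3 immune UMIs held 3 genes of the rule in 67 of 925, 90 of 673, 90 of 465 and 23 of 348 cases in mIgG1, Ang2 Ab, Ctrl and EC-Ang2 (7.24%, 13.4%, 19.4% and 6.61%), the same order within each pair.

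Cycling cells held more UMIs than the other immune cells, with medians of 11735, 10056.5, 8140 and 10855 against 7171, 5801, 6604 and 7292 in mIgG1, Ang2 Ab, Ctrl and EC-Ang2. A deeper barcode can reach 3 genes more readily. With every barcode thinned to 2000 UMIs in 20 random draws, the mean shares were 1.12%, 2.31%, 7.02% and 1.49% in mIgG1, Ang2 Ab, Ctrl and EC-Ang2. The order within both pairs was the same in every draw, with mean log2 ratios of 1.06 (draws 0.67 to 1.46) for Ang2 Ab over mIgG1 and −2.24 (draws −2.44 to −2.04) for EC-Ang2 over Ctrl.

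For comparison, barcodes with markers of neutrophils, most of which no longer divide once in tissue, held 3 genes of the rule in 0 of 7, 0 of 15, 6 of 106 and 0 of 114 barcodes in mIgG1, Ang2 Ab, Ctrl and EC-Ang2. The median depth of those barcodes was 2857, 3316, 3704.5 and 2839.5 UMIs. Barcodes with markers of mature dendritic cells did so in 1 of 46, 1 of 55, 5 of 30 and 0 of 30. Both classes were at their highest in Ctrl, the library with the highest cycling share. Some cycling cells of Ctrl carried genes of immature neutrophils, so these barcodes can include dividing precursors and do not give a level of background there. Free RNA and division cannot be told apart in them.

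Lineage was then read from 3 short lists of genes, with at least 2 UMIs in only 1 list. The microglial list was Tmem119, P2ry12 and Olfml3, the T cell list Cd3e, Cd3g and Lat, which belong to the T cell receptor complex and its signalling, and the monocyte list Ccr2 and Ly6c2. Of the 599 cycling cells, 327 were microglial by this rule, 43 were T and 25 were monocyte, while 184 passed several lists and 20 passed none.

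Microglial-list barcodes cycled most often in 3 of the 4 libraries. Among them 12 of 199 cycled in mIgG1 (6.03%, 3.15 to 10.3) and 66 of 269 did so under Ang2 Ab (24.5%, 19.5 to 30.1). In the transgenic pair 219 of 871 cycled in Ctrl (25.1%, 22.3 to 28.2), and of the 83 in EC-Ang2 30 cycled (36.1%, 25.9 to 47.4). Only mIgG1 stood apart from the other libraries, with an interval below theirs. T-list barcodes cycled at 6.03% (14 of 232), 7.34% (13 of 177), 4.30% (4 of 93) and 6.00% (12 of 200), with intervals that overlapped in all 4 libraries. Monocyte-list barcodes cycled rarely, at 0.294% (4 of 1362), 0.499% (7 of 1403), 1.04% (7 of 672) and 0.512% (7 of 1367).

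Within the pairs, the microglial share was 4.07-fold higher in Ang2 Ab than in mIgG1 (log2 ratio 2.02, interval 1.12 to 3.05). This value rests on 12 cycling cells in mIgG1. The log2 ratio was 1.36 (0.69 to 2.08) at 2 or more genes of the rule. With fewer endothelial than immune UMIs in place of at most 2, it was 1.21 (0.59 to 1.87). In the planned single draw thinned to 2000 UMIs it was 0.70 with an interval that includes 0 (−0.42 to 1.97). It averaged 1.76 over 20 such draws, added after the data had been seen, which ranged from 0.72 to 2.91. For EC-Ang2 over Ctrl the microglial log2 ratio was 0.52 (−0.08 to 1.08), an interval that includes 0. The T cell log2 ratios were 0.28 (−0.92 to 1.48) for Ang2 Ab over mIgG1 and 0.48 (−1.24 to 2.57) for EC-Ang2 over Ctrl, and both intervals include 0.

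In the transgenic pair the overall share and the microglial share thus went opposite ways, and the number of microglial-list barcodes differed. Barcodes that passed the microglial list alone were 37.6% of the immune barcodes of Ctrl (35.7 to 39.7) but 3.52% of those of EC-Ang2 (2.81 to 4.34), with 6.99% and 9.67% for mIgG1 and Ang2 Ab. Among immune barcodes with under 2 UMIs of the microglial list, 26 of 1126 cycled in Ctrl (2.31%, 1.51 to 3.37) and 32 of 2079 in EC-Ang2 (1.54%, 1.06 to 2.17), a log2 ratio of −0.59 (−1.38 to 0.22). The same shares were 1.59% in mIgG1 (34 of 2134) and 1.78% in Ang2 Ab (39 of 2185), a log2 ratio of 0.16 (−0.54 to 0.87). Both intervals include 0, so in neither pair was a difference detectable at this depth among these barcodes. Of the cycling cells of mIgG1, Ang2 Ab, Ctrl and EC-Ang2, 17.6%, 42.3%, 72.5% and 41.1% were microglial.

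**Figure D2:**
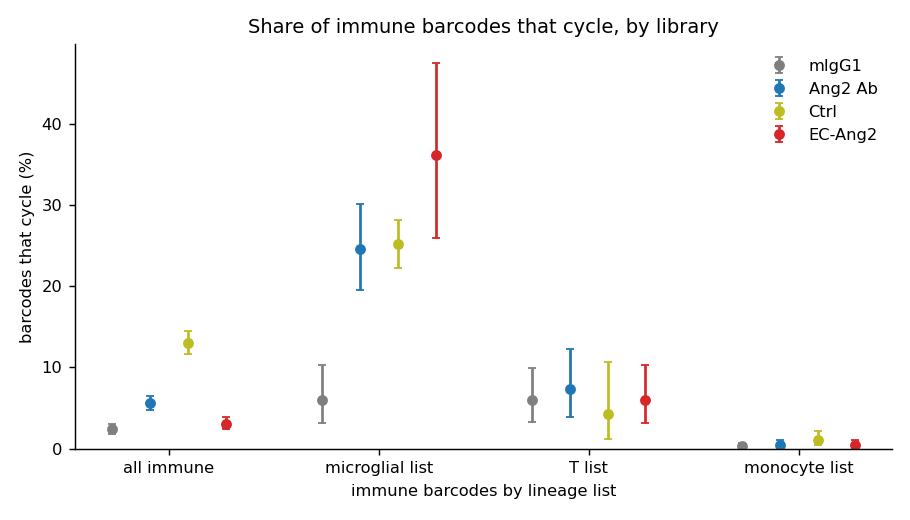
Percent of immune barcodes that cycle in each library, for all immune barcodes and for each lineage list, with exact 95% intervals for counting error. Among all immune barcodes Ctrl is highest at 13.1%, among microglial-list barcodes mIgG1 is lowest at 6.03%, and the T-list intervals overlap.

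The cells that passed several lists were a mixed class. Microglial and monocyte genes together marked 10, 39, 42 and 10 of them in mIgG1, Ang2 Ab, Ctrl and EC-Ang2, and T and monocyte genes together marked 12, 13, 7 and 11. The first kind had a median depth of 24131, 12801, 16514.5 and 13841 UMIs, above the medians of all cycling cells. Doublets, activated microglia with monocyte genes and free RNA cannot be told apart in this class. If each cell was given to the list with the most UMIs, a rule added after the data had been seen, the microglial shares became 8.17%, 24.2%, 24.7% and 33.0% and the T cell shares 9.43%, 10.5%, 7.11% and 6.23%. The monocyte shares under that rule were 0.344%, 1.80%, 2.91% and 0.840%. Their log2 ratios were 2.39 (1.10 to 3.95) for Ang2 Ab over mIgG1 and −1.79 (−2.89 to −0.76) for EC-Ang2 over Ctrl. Both intervals exclude 0, so under that rule the differences in share were not confined to the microglial list. Cells given to the monocyte list in this way can also hold microglial UMIs.

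The label of the microglial cells was checked against genes outside the rule. Siglech and Fcrls, surface receptors of homeostatic microglia, were at 195, 199, 349 and 123 CPM and at 279, 541, 1228 and 229 CPM in the cycling microglial cells of mIgG1, Ang2 Ab, Ctrl and EC-Ang2. Sall1, a transcription factor that maintains microglial identity, had 3, 15, 53 and 5 UMIs. The cycling T cells held 0, 0, 1 and 2 UMIs of Siglech in the same order. Markers of other cell types were low in the cycling microglial cells, with no UMI of the 4 natural killer genes, at most 35.2 CPM of the B cell list, at most 161 CPM of the dendritic cell list and at most 106 CPM of the oligodendrocyte list. The exception was the list of 9 neutrophil genes, at 258 and 224 CPM in mIgG1 and Ang2 Ab and 2413 and 1573 CPM in Ctrl and EC-Ang2, with S100a8 the most abundant, and its part in the differences below was not tested.

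Cycling T cells carried Cd4 transcripts (20, 26, 13 and 21 UMIs in mIgG1, Ang2 Ab, Ctrl and EC-Ang2) and no Cd8a UMI in any library. Cytokines of encephalitogenic T cells varied between libraries. Csf2, which encodes GM-CSF, had 16, 162, 3 and 0 UMIs. Il17a, the cytokine of Th17 cells, had 17, 86, 0 and 114 UMIs, and Ifng, that of Th1 cells, had 60, 10, 23 and 32 UMIs. Foxp3, the factor of regulatory T cells, had 1, 1, 2 and 3 UMIs. The Csf2 counts were high in Ang2 Ab alone and the Il17a counts in Ang2 Ab and EC-Ang2. These sums come from 14, 13, 4 and 12 cells and a few cells can carry most of a cytokine's UMIs.

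The next question was where in the cycle the cells stood. Of the UMIs of the S phase and G2M lists together, the S phase list held 54.1%, 56.0%, 48.0% and 48.5% over all cycling cells of mIgG1, Ang2 Ab, Ctrl and EC-Ang2. In microglial cells it held 47.8% (43.8 to 51.8), 49.6% (47.8 to 51.5), 47.8% (46.8 to 48.8) and 35.6% (32.9 to 38.3). EC-Ang2 was the lowest. The other libraries lay close together under this gate, but mIgG1 and Ang2 Ab differed by 12.5 points with at least 5 genes of the rule and by 11.5 points after thinning, while EC-Ang2 minus Ctrl went from −12.2 to −7.19 points after thinning. In T cells the S phase list held 59.8%, 76.6%, 72.2% and 60.8%, above the microglial value of the same library in all 4, with 4 cells in Ctrl. The median over libraries of the T minus microglial difference was 24.8 percentage points. UMIs of a cell are not independent of each other, so these intervals are narrower than the spread between cells would make them.

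**Figure D3:**
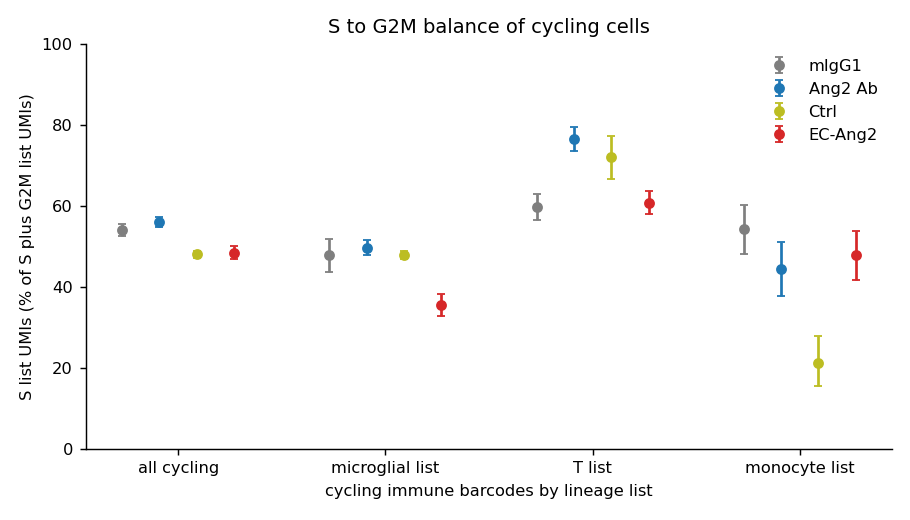
Percent of S phase plus G2M list UMIs that belong to the S phase list, by library and lineage list, with exact 95% intervals for counting error. T cells lie above microglial cells in every library, and EC-Ang2 is the lowest of the microglial values at 35.6%.

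The transcripts that went with cycling were then compared between cycling cells and the other cells of the same lineage list and library. Because the cells were chosen on the same transcripts, these ratios are a description without a test. A gene was counted where its CPM differed by at least 1.5-fold in the same direction in every library. A gene needed at least 50 UMIs over both states in every library, and a sum of 0 was set at 3 UMIs, so a ratio that holds one is a bound. In microglial cells of 4 libraries, 54 of 2018 genes (2.68%) were higher in cycling cells and 28 (1.39%) were lower.

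Genes of chromatin and the cytoskeleton were regular companions of the microglial cycle. Of 17 genes of that list, 13 were measured and 12 were higher in every library, with a median log2 ratio of 1.52 against 0.08 for all genes measured. They included H2afx, the histone variant of DNA damage signalling (mean log2 ratio 3.07), the microtubule destabilizer Stmn1 (2.77) and the DNA-bending protein Hmgb2 (2.36). Of the G2M list only Cks2 (2.37) and Cenpa (3.69), the histone of centromeres, passed the filter. Of the S phase list 4 of 34 genes passed with a median of 1.00, and Mcm3 (1.27), of the replicative helicase, was higher in every library.

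Outside these lists the gene with the largest ratio was 2810417H13Rik, which encodes the PCNA-associated factor. It stood at 265, 424, 327 and 394 CPM in cycling microglial cells of mIgG1, Ang2 Ab, Ctrl and EC-Ang2 and at 7.7, 26.5, 22.2 and 34.5 CPM in the others, a mean log2 ratio of 4.12 (SD 0.68, n = 4). The lowest cycling value was far above the highest other value. Next came Cks1b, a subunit of cyclin-dependent kinases (2.80), Tmpo, of the nuclear lamina (2.08), Pmf1, of the kinetochore (2.03), and Ube2s, which works with Ube2c on the ubiquitin ligase of mitosis (1.68). Lsm2, an RNA-binding splicing protein (1.79), and Anp32e, a chaperone of the histone variant H2A.Z (1.51), followed.

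Inflammatory genes were not shifted as a group in the cycling microglial cells, with a median log2 ratio of 0.09 over 11 measured genes, but 2 members went opposite ways. The interferon-induced chemokine Cxcl10 was higher in every library, at 801, 1377, 1758 and 1091 CPM against 205, 569, 601 and 491 CPM, a mean log2 ratio of 1.49 (SD 0.36, n = 4). Ccl5, a chemokine that attracts T cells, was lower in every library, with a mean log2 ratio of −1.27. Tnf (0.86) was higher in all 4 libraries, with log2 ratios from 0.46 to 1.52, and missed the 1.5-fold mark in Ctrl. With lineage by most UMIs 1 of 14 measured inflammatory genes was higher past 1.5-fold in every library and none was lower.

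MHC class II genes were lower in the cycling microglial cells. Of 7 genes 6 were measured, their median log2 ratio was −1.28, and H2-Aa, H2-Ab1, H2-Eb1 and the invariant chain Cd74 were lower in every library. The median over these genes was −0.89, −0.68, −0.76 and −2.62 in mIgG1, Ang2 Ab, Ctrl and EC-Ang2, so the difference was largest in EC-Ang2. Cd74 stood at 7309, 4056, 1406 and 1447 CPM in cycling cells against 12040, 6866, 2463 and 7929 CPM in the others. With lineage by most UMIs the median of the 6 genes was −0.96, and none was lower past 1.5-fold in every library.

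Genes of lipid handling and of disease-associated microglia were lower too in part. Apoe, which encodes the lipid carrier apolipoprotein E, stood at 10242, 2438, 1435 and 1401 CPM in cycling cells against 29136, 7019, 2662 and 6802 CPM (mean log2 ratio −1.55, SD 0.57, n = 4). Gpnmb (−2.68), a glycoprotein of phagocytes, and Fabp5 (−1.83), a fatty acid-binding protein, were also lower in every library, and the 9 measured genes of that list had a median of −0.49. With lineage by most UMIs 2 of 10 measured genes of that list were lower past 1.5-fold in every library, and the median was −0.43. Outside the lists, the lowest ratios were those of Acp5 (−3.55, with no UMI in the cycling cells of Ctrl), the tartrate-resistant acid phosphatase, Inhba (−3.30), a subunit of activin A, Mmp12 (−2.93), the macrophage elastase, Ms4a7 (−2.69) and the pattern receptor gene Clec4e (−2.64). Several of these are genes of infiltrating macrophages, and the other monocyte genes of a list had a median of −1.07 over 7 measured. Homeostatic microglial genes had medians of 1.18, 0.21, −0.20 and 0.27 in mIgG1, Ang2 Ab, Ctrl and EC-Ang2, so no common direction was seen. How far the non-cycling microglial-list barcodes include macrophages that share Olfml3 was not tested.

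Few brakes of the cell cycle were abundant enough to measure, 3 of 12 in microglial and 5 of 12 in T cells, with medians of −0.53 and −0.78. Btg1, which slows proliferation, had mean log2 ratios of −0.78 in microglial and −1.17 in T cells, and its relative Btg2 −0.53 and −1.19. Both were lower past 1.5-fold in every library among T cells, and neither reached it in every library among microglial cells. With lineage by most UMIs 1 of 5 measured brakes was lower past 1.5-fold in all 4 libraries among T cells. Cdkn1a, the inhibitor p21, had a ratio of 0.13 in microglial cells. Csf1r, the growth factor receptor that microglia depend on, was at 0.10 in microglial cells, and all genes measured had a median of 0.08 in microglial cells and −0.06 in T cells.

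For T cells the 3 libraries with at least 10 cycling T cells were used, which left out Ctrl. Agreement in 3 libraries is a weaker demand than in 4, and other genes were measured, so the counts are not compared with the microglial ones. Of 1985 genes, 96 (4.84%) were higher in every library and 65 (3.27%) were lower. All 8 measured genes of the S phase list were higher, with a median log2 ratio of 1.95, among them Tipin, of replication fork protection (2.58), Lig1, the replicative DNA ligase (2.14), and Pcna, the sliding clamp of DNA polymerase (2.07). Of the chromatin and tubulin list 11 of 12 measured genes were higher, with a median of 2.29. The 2 measured genes of the G2M list had a median of 1.17, against 3.03 for the 2 measured in microglial cells. Stmn1 stood at 2178, 1361 and 1070 CPM in mIgG1, Ang2 Ab and EC-Ang2 against 57.5, 18.7 and 31.1 CPM, a mean log2 ratio of 5.51 (SD 0.59, n = 3). Cdk4, the kinase of entry into the cycle, was higher as well (1.32), and 2810417H13Rik (6.49) and Cks1b (4.21) again had the largest ratios outside the lists.

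Of the 14 genes of the T cell state list 9 were measured, with a median log2 ratio of −0.45, and only Gzmb was lower in every library. Among the genes with the lowest ratios outside the cell cycle lists, Ccl5 stood at 94.7, 97.9 and 33.2 CPM in mIgG1, Ang2 Ab and EC-Ang2 against 1825, 553 and 594 CPM in the other T cells, a mean log2 ratio of −3.64 (SD 0.99, n = 3). Gzmb, which encodes granzyme B, stood at 9.47, 58.8 and 6.65 CPM against 71.6, 319 and 223 CPM, and the cycling values come from 1, 6 and 1 UMIs. Tnfsf8, the CD30 ligand (−2.68), and Mxd1, an antagonist of MYC partners (−1.77), were also lower. Of 4 measured interferon genes, Gbp2 (−2.28), Irf7 (−1.17) and Isg15 (−1.13) were lower in every library, with a median of −1.15 over the 4. With lineage by most UMIs, in 4 libraries, none of 5 measured interferon genes was lower past 1.5-fold in every library, and the median was −0.67.

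**Figure D4:**
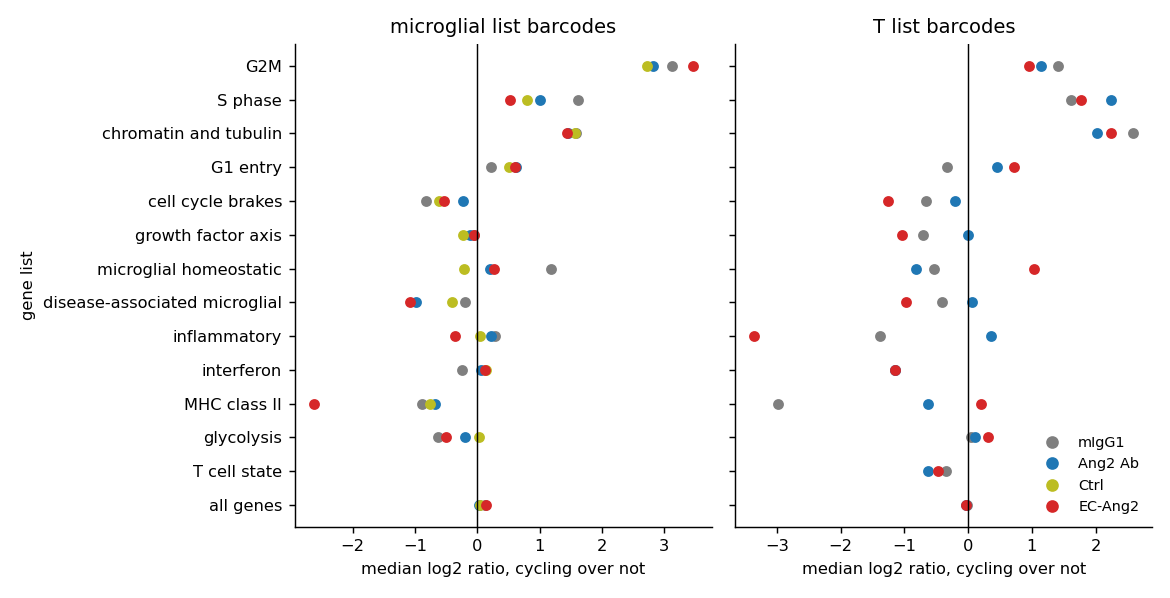
Median log2 ratio of CPM in cycling over other cells for each gene list, 1 point per library, in microglial-list (left) and T-list barcodes (right, without Ctrl, which held 4 cycling T cells). The G2M list has 2 measured genes in each panel. Chromatin and tubulin genes lie above 1 in every library, and MHC class II genes lie below 0 in every microglial library.

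Whether the change that goes with cycling differed between microglial and T cells was tested, since the rule did not use that difference. Counts were summed per library, lineage and state, and the cycling minus not cycling change was compared between the lineages with edgeR's quasi-likelihood test across 7288 genes, with each library and lineage as a block. The libraries are of 4 conditions, so the p-values measure the spread between these libraries, with 5 residual degrees of freedom. After Benjamini-Hochberg adjustment the microglial minus T difference of the log2 changes was above 0 for 10 genes (0.137%) and below 0 for 21 (0.288%), while 666 genes had an unadjusted p under 0.05. The sign does not say which lineage changed more. By size, the change was larger in microglial cells for 4 of the 10 and in T cells for 6, and larger in T cells for 14 of the 21 and in microglial cells for 7. Genes of the cell cycle lists are given as values, since cells were chosen on transcripts that move with them. The same holds for genes outside the lists whose ratio was high in cycling cells of a lineage, among them Rad51ap1, Rfc3, Asf1b, 2810417H13Rik, Cks1b, Cenpl and Trim59.

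Outside the cell cycle lists 8 genes had a difference above 0, and for 6 of them, Cd69, Ccl5, Gbp2, Ccl3, Slfn2 and Bcl2a1a, it came with a fitted change below 0 in T cells that was larger in size than the microglial change. Cd69, an early activation antigen that retains lymphocytes in tissue, stood at 133, 157 and 166 CPM in cycling T cells of mIgG1, Ang2 Ab and EC-Ang2 against 360, 283 and 379 CPM. In microglial cells it stood at 27.9, 74.1, 62.5 and 84.5 CPM against 24.8, 34.7, 39.3 and 58.2 CPM, higher in the cycling cells of all 4 libraries. The mIgG1 value in cycling microglial cells rests on 4 UMIs and was close to that of the other cells. The log2 difference was 1.81 (adjusted p = 0.00163 by edgeR's quasi-likelihood test). Ccl5 was lower in cycling cells of both lineages and more so in T cells (log2 difference 2.37, adjusted p = 0.00163). Gbp2, an interferon-induced GTPase, was at 9.47, 39.2 and 59.8 CPM in cycling T cells against 89.0, 119 and 241 CPM, with little change in microglial cells (2.05, adjusted p = 0.00215).

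Ccl3, a chemokine of macrophages, had a log2 difference of 3.27 (adjusted p = 0.0166 by edgeR's quasi-likelihood test). It had 0, 1 and 2 UMIs in cycling T cells, so its T cell change rests on almost no counts. The ranges of the libraries of the lineages overlapped, and the difference changed sign with lineage by most UMIs. Slfn2, a gene that keeps T cells quiescent, was at 417, 343 and 326 CPM in cycling T cells against 597, 619 and 735 CPM (1.02, adjusted p = 0.0200). Trim59, a ubiquitin ligase (difference 3.58), and Cenpl, of the centromere (2.65), had log2 changes of 3.05 and 2.39 in microglial cells and −0.53 and −0.26 in T cells. Trim59 had 1, 14, 47 and 7 UMIs in cycling microglial cells. Bcl2a1a, an anti-apoptotic gene with near-identical copies that can share reads, had no UMI in cycling T cells, and its fitted difference of 7.52 (adjusted p = 0.0365) depends on the prior count.

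Of the genes with a difference below 0, 7 outside the cell cycle lists are described here. For 4 of them the fitted change was above 0 in both lineages and larger in T cells. Rad51ap1, which acts in the repair of DNA breaks, had 5, 10 and 13 UMIs in cycling T cells and none in the others, so its fitted log2 difference of −6.34 depends on the prior count. Rfc3, of the clamp loader (−2.24), and Asf1b, a histone chaperone (−2.08), had the same direction, and were called under 4 and 3 of the 8 other gates and lineage rules that could be fitted. For 2810417H13Rik the ratio was high in both lineages and higher in T cells (−2.44). Among list genes, Stmn1 had a difference of −2.76, Tuba1b −1.960 and Tubb5 −1.59 (tubulin genes, which have near-identical relatives that can share reads), Hmgn2 −1.69 and Mcm3 −1.73, and Cks2 (1.501) and Smc4 (1.64) went the other way.

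For the other 3 of these genes the fitted change was below 0 in microglial cells and larger in size there than in T cells. Fabp5 had a log2 ratio of −1.93 in microglial and 0.60 in T cells (difference −2.53, adjusted p = 0.00163). Acp5 had −3.26 and −0.31 (difference −2.95, adjusted p = 0.00844). Cxcl3, a chemokine for neutrophils, had a difference of −2.97 (adjusted p = 0.0351) from at most 9 UMIs in any cycling microglial sum, and it changed sign under other gates.

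By list, the differences had medians of −1.12 for S phase, where 2 of 34 genes were above 0, 1.19 for inflammatory genes, where 13 of 14 were above 0, and 1.11 for interferon genes, where all 10 were above 0. All genes tested had a median of −0.02, with 3543 of 7288 above 0. Of these list genes outside the cell cycle, 2 inflammatory (Ccl3 and Ccl5) and 1 interferon gene (Gbp2) passed the test. The difference of Ccl3 changed sign with lineage by most UMIs. In T cells only 3 of the 15 inflammatory and 4 of the 10 interferon genes had at least 50 UMIs over both states in every library. The microglial lineage list, which the T cells were chosen to lack, also had a median of 1.51, with 2 of 3 genes above 0. The part of low T cell counts in the inflammatory and interferon medians was not tested. Of the 11 glycolysis genes none passed and none was above 0, with a median of −0.54.

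Within cycling microglial cells the 2 conditions of the transgenic pair were compared gene by gene, as libraries of 30 cells in EC-Ang2 and 219 in Ctrl. Of 4656 genes with at least 50 UMIs in both together and a UMI in at least 10% of the cells of either, 306 (6.57%) were at least 1.5-fold higher in EC-Ang2 and 925 (19.9%) lower, with a median log2 ratio of −0.07. With the further demand that the interval exclude 0, a rule added after the data had been seen, 164 genes (3.52%) were higher and 409 (8.78%) lower. At these UMIs a ratio past 1.5-fold can come from counting error alone, most easily for genes with few UMIs in the smaller library.

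S phase genes were lower in the cycling microglial cells of EC-Ang2. Of 34 genes 28 were measured, 21 were lower past 1.5-fold and none was higher, 16 had an interval that excluded 0, and the median log2 ratio was −0.82. Pcna stood at 88.0 CPM against 239 in Ctrl (log2 ratio −1.44, interval −2.08 to −0.86), Slbp, which binds histone messages, at 70.4 against 266 CPM (−1.92, −2.64 to −1.28), and Mcm6, of the helicase, at 35.2 against 114 CPM (−1.70, −2.78 to −0.79). In mIgG1 and Ang2 Ab the Pcna level was 160 and 224 CPM and that of Mcm6 90.6 and 83.6 CPM. These are given as values only, since the pairs differ in substrain and day and mIgG1 held 12 such cells. The G2M list had a median of −0.13 over 34 measured genes, with 8 lower, 2 of them with an interval that excluded 0, and none higher. In cells outside the cycle the same pair gave a median of −0.21 for the S phase list. Of 19 measured genes 9 were lower, 7 of them with an interval that excluded 0, and none was higher. Over all genes there, 1424 of 5858 were lower, 865 (14.8%) with such an interval, and the median was −0.12. With lineage by most UMIs (34 and 251 cells), 13 of 30 measured S phase genes were lower. Of these 10 had an interval that excluded 0, and the list median was −0.57. All genes gave 1200 of 5662 lower, 551 with such an interval, and a median of −0.08. Outside the cycle that rule gave 9 of 20 S phase genes lower, all 9 with such an interval, and a median of −0.45. All genes gave 1225 of 6592 lower there, 859 with such an interval, and a median of −0.08. Part of the S phase list was thus lower outside the cycle as well, and the difference between the states was not tested. The brakes Btg2 (−1.81, −2.29 to −1.36) and Cdkn1a (−1.08, −1.45 to −0.73) were lower as well.

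Among homeostatic genes of microglia 6 of 10 were lower in EC-Ang2, 5 of them with an interval that excluded 0, and none was higher, with a median of −0.68, led by Fcrls (229 against 1228 CPM, log2 ratio −2.42, −2.80 to −2.07), Cst3, the protease inhibitor cystatin C (−1.83, −1.91 to −1.76), and Siglech (123 against 349 CPM). Csf1r was lower (−0.76, −0.94 to −0.59). Of 9 measured glycolysis genes 4 were higher, Aldoa (0.78), Tpi1 (0.77), Eno1 (0.70) and Gapdh (0.69), and 1 was lower, the glucose transporter gene Slc2a1 (−0.75, −1.42 to −0.15), with a median of 0.32. By most UMIs 3 of 10 were higher and 2 lower, with a median of 0.49.

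Inflammatory genes split. Of 13 measured, 8 were lower, among them the cytokine genes Tnf (447 against 1332 CPM, log2 ratio −1.58, −1.84 to −1.32) and Il1a (−1.48, −1.76 to −1.22) and the chemokine genes Ccl3 (−1.53, −1.67 to −1.39) and Cxcl2 (−3.89, −5.21 to −2.83). The 3 that were higher were the acute phase gene Saa3 (1.35, 0.84 to 1.83), Cxcl9 (1.23, 0.66 to 1.79) and Ccl5 (0.61, 0.22 to 0.98). The split was lost with lineage by most UMIs, where 9 of 14 inflammatory genes were lower and none was higher, and these 3 had ratios of 0.26 (−0.20 to 0.70), 0.44 (−0.09 to 0.94) and −0.13 (−0.39 to 0.13). Under that rule Cxcl2 was at −1.82 (−2.33 to −1.35), and Tnf at −1.81 and Il1a at −1.31 were again lower. Of the 10 interferon genes 5 were lower, 3 with an interval that excluded 0, such as Rsad2 (−2.21, −4.11 to −0.82), and 1 was higher with an interval that excluded 0. By most UMIs 5 were lower, 4 with such an interval, and none was higher. Of the disease-associated genes, Cst7, another cystatin, was higher (1.58, 1.23 to 1.92) while Trem2, a lipid receptor of microglia, was lower (−0.68, −0.93 to −0.44) but short of 1.5-fold by most UMIs (−0.51), and the median was −0.00 over 10.

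Outside the lists, the largest ratio was that of Hmox1, which encodes heme oxygenase 1, at 595 CPM against 140 (log2 ratio 2.09, 1.80 to 2.37). Asprv1 (1.94), Iigp1, an interferon-induced GTPase (1.68), Ctla2a (1.61) and Tnfaip2 (1.61) followed, and by most UMIs Hmox1 was at 1.84 and Tnfaip2 at 0.94. The lowest were Erdr1, a repeated gene of the sex chromosomes whose reads may not be assigned with certainty, and Retnlg with 1 UMI each in EC-Ang2 and Il1r2 and Mbp with 2 each. Their log2 ratios of −4.10 (−9.41 to −1.59), −4.08 (−9.40 to −1.57), −3.61 (−6.67 to −1.73) and −3.54 (−6.60 to −1.67) have wide intervals, and Retnlg and Mbp mark neutrophils and oligodendrocytes.

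The same pair outside the cycle did not give the same list medians. There MHC class II genes had a median of 1.73, disease-associated genes 1.08, glycolysis genes 1.11 and homeostatic genes −1.44, over 53 and 652 cells. By most UMIs, over 69 and 767 cells, these medians were 1.06, 0.84, 0.69 and −1.35. Monocyte genes moved with them. Of 8 measured genes of the further monocyte list 5 were higher in EC-Ang2 and none was lower past 1.5-fold, with a median of 1.39. They were led by Chil3 (532 against 17.3 CPM, log2 ratio 4.94, 4.56 to 5.35), and Ly6c2 of the lineage list had a ratio of 1.71 (0.91 to 2.46). Over all genes, 574 of 5858 were higher and 1424 lower. By most UMIs 5 of 9 measured genes of the further monocyte list were higher and 2 lower, with a median of 0.86 and a highest ratio of 2.84. In the cycling cells that list had a median of −0.54 under the main rule, with 1 of 7 higher and 3 lower. By most UMIs its median there was −0.70, with 6 of 9 lower and none higher. The part of monocyte transcripts in these medians was not tested. Among cycling cells the MHC class II median was −0.17, with none of 6 genes past 1.5-fold. By most UMIs it was −0.54, with 3 of the 6 lower past 1.5-fold, each with an interval that excluded 0. The difference between the states was not tested, as each state had 1 library per condition.

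**Figure D5:**
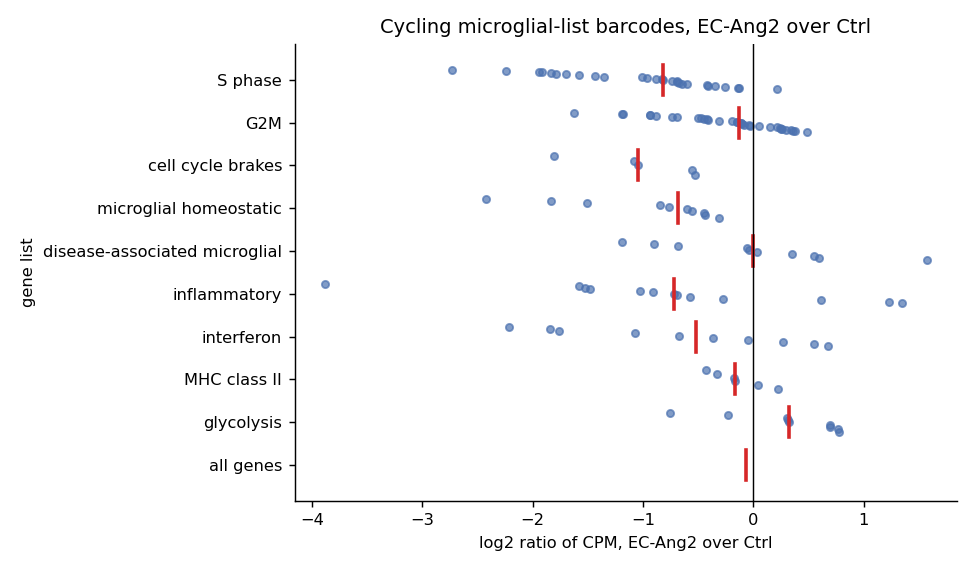
Log2 ratio of CPM in cycling microglial-list barcodes, EC-Ang2 (30 cells) over Ctrl (219 cells), 1 point per measured gene and a red bar at the median of each list and of all genes. The S phase genes lie mostly below 0 with a median of −0.82, while G2M genes spread around −0.13.

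For Ang2 Ab against mIgG1 only the rule of most UMIs left enough cells, 91 and 25 microglial cells. Of 3664 genes, 445 (12.1%) were at least 1.5-fold higher in Ang2 Ab and 240 (6.55%) lower, with a median of 0.08. With the demand for an interval that excludes 0, 301 (8.22%) were higher and 172 (4.69%) lower. Apoe was lower, at 2872 CPM against 14760 (log2 ratio −2.36, −2.42 to −2.30), and 7 of 11 measured disease-associated genes were lower and none higher (median −0.94), including Spp1, osteopontin (−2.02, −2.11 to −1.93), and Gpnmb (−1.85, −2.31 to −1.41). MHC class II genes had a median of −0.87, with 4 of 6 lower, such as H2-Aa (−1.04, −1.17 to −0.92). Of 9 measured genes of the further monocyte list 3 were lower, each with an interval that excluded 0, and none was higher (median −0.22). The microglial lineage list had a median of 0.52. The part of monocyte transcripts in these differences was not tested.

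Inflammatory genes were split, with 6 of 13 higher and 3 lower, all with intervals that excluded 0. Il1a (1.46, 1.20 to 1.72), Cxcl10 (1.34, 1.13 to 1.56) and Tnf (1.17, 0.88 to 1.46) were higher in Ang2 Ab, and Saa3 (−2.16, −2.59 to −1.74) and Ccl5 (−1.24, −1.44 to −1.05) were lower. Ccl17, a chemokine for CCR4-bearing T cells, had the largest ratio (347 against 28.8 CPM, log2 ratio 3.59, 2.80 to 4.51). The study used Ccl17 among its markers of dendritic cells. The 1 measured gene of the dendritic cell list was higher too, with a ratio of 1.10 and an interval that excluded 0. The part of dendritic cell transcripts was not tested. Both measured neutrophil genes were higher in Ang2 Ab as well, S100a8 at 254 against 124 CPM (1.03, 0.61 to 1.48) and S100a9 at 69.6 against 8.87 CPM (2.97, 1.55 to 4.89), and their part in these differences was not tested. Of the S phase list 8 of 19 measured genes were higher and none lower, with a median of 0.54, and the G2M list had a median of 0.31. Outside the cycle the same pair and rule gave 16 of 18 measured S phase genes higher with a median of 0.90, over 285 and 281 cells. Over all genes there, 678 of 6770 were higher and 270 lower, with a median of 0.11. MHC class II genes had a median of −0.79 there with 4 of 6 lower, and disease-associated genes one of −0.35 with 4 of 12 lower, so these shifts were seen in both states and their difference was not tested.

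Cycling T cells by that rule numbered 29 in Ang2 Ab and 33 in mIgG1. Of 1810 genes, 152 (8.40%) were higher in Ang2 Ab and 182 (10.1%) lower, and 102 (5.64%) and 139 (7.68%) with an interval that excluded 0. Csf2 was at 735 CPM in Ang2 Ab against 103 in mIgG1 (log2 ratio 2.84, 2.33 to 3.39), Il17a was higher (1.16, 0.65 to 1.68) and Ifng had a ratio of −0.36 (−0.99 to 0.24). The share of cells with a Csf2 UMI was similar, 27.6% in Ang2 Ab and 24.2% in mIgG1, with 194 and 37 UMIs. A few cells can thus carry most of these UMIs, and the intervals do not cover the spread between cells. The lowest ratios were those of the phagocyte genes Gpnmb, Lyz2, Apoe and Cx3cr1, and Lyz2 was at 341 CPM against 4093, so the cycling T cell barcodes of mIgG1 also carried more myeloid transcripts. The part of these transcripts in the other differences was not tested.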

How the data were processed

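The authors sequenced 3' single-cell libraries (Chromium v2) of the 4 SC samples and made the deposited UMI counts per gene and barcode with Cell Ranger 2.1.1 against mm10, as per their methods and processing notes. The files held 27998 genes and every barcode with a UMI, so cells were called here by the rule given with the report's opening. The members, the lineage lists and the gene lists were chosen with earlier results of these data known. Counts were summed per library, lineage list and state and divided by the summed UMIs of the same cells (CPM). No column belonged to another series.

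Shares carry exact Clopper-Pearson intervals and ratios of counts carry exact conditional binomial intervals, at 95% and for counting error only. The difference of the cycling-linked change between lineages was fitted with edgeR 4.0.16 (R 4.3.3) by its quasi-likelihood test with Benjamini-Hochberg adjustment over all genes tested, a threshold of 0.05 and at least 10 cells per sum. DESeq2 1.42.0 was an alternative. Doublets were scored with Scrublet in scanpy 1.11.5. Its automatic threshold marked 0.0453% of the barcodes of Ctrl, so scores were cut at the expected rate instead. Thinning drew 2000 UMIs per barcode without replacement. Python 3.11.15, numpy 2.4.6, scipy 1.17.1 and pandas 2.3.3 were used. The edgeR test and the ratios with their intervals were tried on simulated counts. Genes were named as list members with the largest UMIs or log2 values, as the 8 called genes in each direction with the largest log2 difference, as the 5 in each direction with the largest ratio between conditions, and as the 10 in each direction with the largest mean ratio between states. Results for a few genes that these rules name are not reported here. The 150-base promoters and the search window came from the RefSeq table of GRCm38.p6, and 2 genes of the rule had no window there. The most-UMIs lineage rule, the microglial list of Siglech, Gpr34, Sall1 and Fcrls, the 20 thinning draws, the relative endothelial limit and the interval demand were alternatives chosen after seeing the data.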

Additional observations from a re-analysis of the deposited data

Results flagged for a closer look

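The change that goes with cycling differed between microglial and T cells for 31 genes by edgeR's quasi-likelihood test (adjusted p under 0.05), and the values below are log2 differences, microglial minus T. For genes of the cell cycle lists, on which the choice of cells bears, the values were −2.76 for Stmn1, −1.960 for Tuba1b, −1.59 for Tubb5, −1.69 for Hmgn2, −1.73 for Mcm3, 1.501 for Cks2 and 1.64 for Smc4.

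Outside those lists, the difference was above 0 for Bcl2a1a (7.52), Trim59 (3.58), Ccl3 (3.27), Cenpl (2.65), Ccl5 (2.37), Gbp2 (2.05), Cd69 (1.81) and Slfn2 (1.02). It was below 0 for Rad51ap1 (−6.34), Cxcl3 (−2.97), Acp5 (−2.95), Fabp5 (−2.53), 2810417H13Rik (−2.44), Rfc3 (−2.24), Asf1b (−2.08), Itpa (−2.01), Ifitm1 (−1.81), Vim (−1.77), Tuba4a (−1.76), Cks1b (−1.55), Lgals1 (−1.54), AW112010 (−1.03) and Ptma (−0.81). The choice of cells also bears on Rad51ap1, 2810417H13Rik, Rfc3, Asf1b, Cks1b, Cenpl and Trim59, whose ratio was high in cycling cells. Cenpl and Cd69 were called under all 8 other gates and lineage rules that could be fitted, 2810417H13Rik under 7, and Trim59, Gbp2, Slfn2, Fabp5, Lgals1, Ifitm1, Vim and Tuba4a under 6. Ccl5, Ccl3, Acp5, Rad51ap1 and AW112010 were called under 5, Rfc3, Cks1b and Ptma under 4, Asf1b, Cxcl3 and Itpa under 3 and Bcl2a1a under 2. Of the 24 called genes outside those lists, the ranges of the libraries of the 2 lineages did not overlap for 6 of the 8 with a difference above 0 and for 15 of the 16 with one below 0. The sign is that of microglial minus T and does not say which lineage changed more. By size the change was larger in T cells for 6 of the 8 (all but Trim59 and Cenpl), and larger in microglial cells for 7 of the 16 (Cxcl3, Acp5, Fabp5, Vim, Tuba4a, Lgals1 and AW112010).

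Cell division transcripts also appeared outside the immune gate. Of barcodes with over 2 endothelial UMIs and under 3 immune UMIs, 55 of 2484 held 3 genes of the rule in EC-Ang2 (2.21%), against 18 of 3656 in Ctrl (0.492%). In the other pair the counts were 62 of 3067 in mIgG1 (2.02%) and 9 of 3627 in Ang2 Ab (0.248%). With 1 library per condition the difference was not tested.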

How the results depend on the processing

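The higher cycling share in Ang2 Ab than in mIgG1 and the lower share in EC-Ang2 than in Ctrl had the same direction under every gate tried. With Scrublet doublets removed the shares were 2.23%, 5.41%, 12.6% and 3.05% in mIgG1, Ang2 Ab, Ctrl and EC-Ang2. The log2 ratios were then 1.28 for Ang2 Ab over mIgG1 and −2.04 for EC-Ang2 over Ctrl. In a single draw thinned to 2000 UMIs the EC-Ang2 over Ctrl log2 ratio was −2.48, and the microglial ratio of Ang2 Ab over mIgG1, which rests on few mIgG1 cells, was 0.70 with an interval that includes 0. The S phase percentage of microglial cells differed by 1.84 points between Ang2 Ab and mIgG1, by 12.5 with at least 5 genes of the rule and by 11.5 after thinning. Between EC-Ang2 and Ctrl it differed by −12.2 points, by −7.19 after thinning, −15.1 at 4000 UMIs or more, −8.87 with lineage by most UMIs and −7.74 with the relative endothelial limit. The median T minus microglial difference of 24.8 points was 17.4 by most UMIs.

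Genes with a microglial minus T difference above 0 in the cycling-linked change numbered 10, with 103 without a filter on low counts, 23 with microglia chosen by Siglech, Gpr34, Sall1 and Fcrls, 33 with the relative endothelial limit, and 4 (without Ang2 Ab) to 44 (without Ctrl) when 1 library was left out. Those with a difference below 0 numbered 21, with 11 at 2 or more genes of the rule, 8 after thinning, 7 at 4000 UMIs or more, 33 and 34 under the same added choices of microglia and endothelial limit, and 6 (without Ang2 Ab) to 30 (without Ctrl) when 1 library was left out, with 7 without EC-Ang2 and 11 without mIgG1. DESeq2 called 8 and 15. With Scrublet doublets removed, 9 of the 10 and all 21 stayed called, against 5 and 11 with lineage by most UMIs, 5 and 6 after thinning, 6 and 7 at 4000 UMIs or more, 8 and 11 at 2 or more genes of the rule, 8 and 20 at 3 lineage UMIs, and 10 and 19 under each of the added choices of microglia and endothelial limit. The difference of Ccl3 was −0.46 with lineage by most UMIs, and that of Cxcl3 was 2.07 after thinning and 0.26 with the relative endothelial limit. The causes of these changes were not tested.

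Between EC-Ang2 and Ctrl, 306 genes were higher and 925 lower in cycling microglial cells. A fold of 2 left 50 and 407, a minimum of 20 UMIs gave 708 and 1505, a mean of CPM over cells gave 476 higher, and the interval demand left 164 and 409. With lineage by most UMIs the S phase, inflammatory and MHC class II medians of this pair were −0.57, −0.78 and −0.54, against −0.82, −0.72 and −0.17. The difference test was not run at 5 genes of the rule or at 1 lineage UMI, where fewer libraries held 10 cycling T cells, and cycling monocyte cells were too few for a comparison between conditions or lineages under the main rule. No paired analysis was possible because each condition was 1 library and the replicate number marks no shared animal.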

Other observations

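The 25 cycling cells of the monocyte list differed between libraries. The 7 of Ctrl held 104901 CPM of the neutrophil list, with 1341 UMIs of Ngp, 1040 of Camp and 310 of Ltf, which are granule genes of immature neutrophils. Those 3 genes had no UMI in the cycling monocyte-list cells of the other 3 libraries. In mIgG1 the neutrophil list stood at 17800 CPM, with 470 UMIs of S100a8, in 4 cells. MHC class II genes stood at 22533 and 45948 CPM in those cells of mIgG1 and Ang2 Ab, where Xcr1, the receptor of cross-presenting dendritic cells, had 4 and 3 UMIs and Kmo, a dendritic cell marker of the study, 2 and 6 UMIs. Neither Xcr1 nor Kmo had a UMI in those cells of Ctrl and EC-Ang2. Among cycling cells without a lineage call, Xcr1 had 5 and 11 UMIs in mIgG1 and Ang2 Ab and none in the other libraries, and MHC class II genes stood at 87733 CPM in mIgG1. The cells of these classes were too few for a comparison.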
